A study of Mus musculus with 6 samples.

Results

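The genes described here encode the nuclear subunits and assembly factors of the mitochondrial respiratory chain and ATP synthase, measured in cultured mouse T cells. They were chosen by symbol from the array's annotation: all genes whose symbol starts with Nduf, Uqcr, Atp5 or Cox4 to Cox8, together with Sdha to Sdhd, Cyc1 and Cycs. A probe set, the group of short probes that reports 1 transcript, was used only if it carried 1 symbol, and each gene was read from its brightest probe set over all arrays. This gave 89 genes out of 17097, read from 152 probe sets. They comprise 39 genes of complex I (6 core subunits, 26 accessory subunits and 7 assembly factors), 4 of complex II, 8 of complex III, cytochrome c, 19 of complex IV and 17 of ATP synthase, which is also called complex V. The last member, Ndufs5-ps, is a pseudogene that was matched by its name and is counted apart. Ndufs5, Ndufa13, Ndufb6, Uqcrh, Cox7b and the subunits encoded by mitochondrial DNA were not analysed here.

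The cells were CD4+CD25- T cells of female C57BL/6 mice, so cells that already carried the IL-2 receptor alpha chain had been taken out. They were kept for 4 days in wells coated with protein. One group had an antibody to CD3 at 2 µg/ml, which triggers the T cell receptor. A second group had B7-2.Fc at 3 µg/ml as well, a fusion of the costimulatory ligand B7-2 (CD86), which binds CD28 and CTLA-4. The third group had BTNL2.Fc at 11 µg/ml on top of both, a fusion of the B7 relative BTNL2. The protocol also names an IgG1 control protein as the counterpart of BTNL2.Fc. IL-2 at 10 ng/ml and TGF-beta at 0.36 ng/ml were present in every well, also those with anti-CD3 alone. Each group had 2 cultures with 1 array each. Nothing says that the 2 came from separate animals, so p-values measure the spread between these cultures, which may be technical. One label gives spleen and another spleen and lymph nodes as the source. Below, each group goes by the protein added last to its coating.

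The respiratory chain carries electrons from NADH and succinate to oxygen. Complex I and complex II feed them to coenzyme Q, complex III hands them on to cytochrome c, and complex IV passes them to oxygen. Complexes I, III and IV pump protons across the inner mitochondrial membrane, and ATP synthase makes ATP as the protons flow back. T cells enlarge their mitochondria and raise respiration and glycolysis after activation, and CD28 signals add to this metabolic change. Several subunits of complex IV exist in a common form and in a form known from particular tissues, such as heart and skeletal muscle or testis.

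Values are RMA intensities, the background-corrected and normalized brightness of a probe set on a linear scale, and changes are differences of log2 intensity ± the standard error of the fit. A gene was called higher or lower at a Benjamini-Hochberg adjusted p under 0.05 in limma over all 17097 genes, with 2 arrays per group, and all adjusted p-values below come from that fit. The small number of arrays limits the precision. The median probe set had an intensity of 18.45 to 18.77 and nonspecific control probe sets had medians of 3.68 to 4.49. A total of 88 of the 89 members were brighter than the 40th percentile of all probe sets, and the exception, Cox7b2, read 6.25 to 7.44 on the 6 arrays. Duplicate arrays correlated at r = 0.997 to 0.998 over genes and arrays of different groups at 0.974 to 0.987, and genes are not independent replicates. The ratio of 3' to 5' beta-actin signal, a measure of RNA integrity, was 1.68 to 1.92. In bulk RNA, fewer cells of a type and less RNA per cell cannot be told apart.

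The cell label was checked on 9 T cell markers, all above the 40th percentile on these arrays. Their summed intensity was 25621 to 25988 in the anti-CD3, 21246 to 21524 in the B7-2 and 21337 to 21394 in the BTNL2 wells. Of these 9, 3 were called lower with B7-2 against anti-CD3 (33.3%, beside 13.3% of all genes). With BTNL2 against anti-CD3, 5 were lower and 1 higher (55.6% and 11.1%, beside 16.2% and 14.2%). With BTNL2 against B7-2, 2 were lower and 1 higher (22.2% and 11.1%, beside 10.8% and 9.52%). The 9 B cell markers summed to 935 to 998, 552 to 583 and 789 to 1012 in the anti-CD3, B7-2 and BTNL2 wells. Pax5 and Cr2 among them were under the 40th percentile. With B7-2 against anti-CD3, 6 of these 9 were called lower (66.7%, beside 13.3% of all genes). With BTNL2 against B7-2, 4 were called higher and 1 lower (44.4% and 11.1%, beside 9.52% and 10.8%). With BTNL2 against anti-CD3, 4 were called lower and 1 higher (44.4% and 11.1%, beside 16.2% and 14.2%). Ms4a1 went from 133 and 128 to 280.2 and 384, and Ebf1 from 143 and 148 to 49.6 and 61.5. The 8 CD8 T cell and NK cell markers summed to 660 to 714, 298 to 315 and 2686 to 3126, with Ncr1 under that percentile. Cd8a alone went from 302 and 321 to 119 and 107 and then 987 and 924. Of these 8, 5 were called lower with B7-2 against anti-CD3 (62.5%, beside 13.3% of all genes). With BTNL2, 6 were higher against B7-2 (75%, beside 9.52%) and 5 against anti-CD3 (62.5%, beside 14.2%). The 10 myeloid markers summed to 244 to 268, 197 to 208 and 183 to 195, and Lyz2, Itgam, Adgre1, Cebpa and Mpo were under the percentile. Of these 10, Cd68 alone was called lower with B7-2 against anti-CD3 (from 129 and 135 to 92.0 and 79.4) and again with BTNL2 against B7-2 (59.3 and 51.7; adjusted p = 0.0535 without B7-2 replicate 1), and Cybb alone was called higher, with BTNL2 against B7-2 (from 15.4 and 17.9 to 28.4 and 29.9). Each of these myeloid calls was 10% of the list, beside 13.3% and 10.8% of all genes for the falls and 9.52% for the rise. The part of the cell markers in the changes of the respiratory genes was not tested.

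A total of 62 of the 89 members passed the test in none of the 3 comparisons. The share of all genes called in none of them was not counted. In either direction, 24.5% of all genes were called with B7-2 against anti-CD3. With BTNL2, 20.4% were called against B7-2 and 30.4% against anti-CD3. With B7-2 against anti-CD3, 14 members rose and 6 fell, or 15.7% and 6.74%, beside 11.2% and 13.3% of all genes tested. With BTNL2 against B7-2, 1 member rose and 7 fell, or 1.12% and 7.87%, beside 9.52% and 10.8% of all genes. Between the BTNL2 and anti-CD3 wells, which differ by both proteins, 14 rose and 8 fell, or 15.7% and 8.99%, beside 14.2% and 16.2% of all genes. The median log2 change of the members in these comparisons was 0.07, -0.01 and 0.06. The first and second comparison share the B7-2 arrays, and the third shares arrays with each, so the values of each are given side by side below.

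These counts depend on how arrays are scaled. One alternative centred each array on the median of its 17097 genes, read from 1 probe set each. The medians over all probe sets were already alike, at 18.45 to 18.77. This median centring moved the median log2 change of all genes from -0.0048 to 0.14 for B7-2 against anti-CD3. For BTNL2 against anti-CD3 it moved from -0.0046 to 0.16. The higher share of all calls then went from 45.6% to 69.4% and from 46.6% to 68.7%, and the members called higher from 14 to 30 and from 14 to 36, beside 20.1% and 25.6% of all genes. The members called lower went from 6 to 5 and from 8 to 7, beside 8.88% and 11.7%. With an intensity trend in limma's prior, 27, 8 and 31 members were called higher in the 3 comparisons, in the order above, beside 13.9%, 12.2% and 16.6% of all genes, and 9, 15 and 15 lower, beside 16.1%, 13.6% and 18.1%. The 14 members higher with B7-2 became 7 without anti-CD3 replicate 1 or B7-2 replicate 2, 8 without B7-2 replicate 1 and 9 without anti-CD3 replicate 2. The 7 lower with BTNL2 against B7-2 became 2 without B7-2 replicate 1 or BTNL2 replicate 1, and 4 without any other 1 array. The 1 higher there was lost without any 1 of the arrays compared. The values below are on the deposited scale. Any single call named below held under every alternative tried (other variance priors, scalings, filters and probe set rules, and each of the 6 arrays left out in turn), unless the text says otherwise.

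Between the BTNL2 and anti-CD3 wells, calls lay in every class except complex II. Of 7 complex I assembly factors, 4 rose with B7-2 against anti-CD3 (57.1%, beside 11.2% of all genes). Of 19 complex IV genes, 4 fell in that comparison (21.1%, beside 13.3%). Cytochrome c, cytochrome c1 and 1 gene of the ATP synthase c-ring rose in both comparisons with anti-CD3. Complex II had no called gene in any comparison. Of the 10 common subunits of complex IV, 1 was called in any comparison (Ndufa4, higher in both comparisons with anti-CD3).

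**Figure D1:**
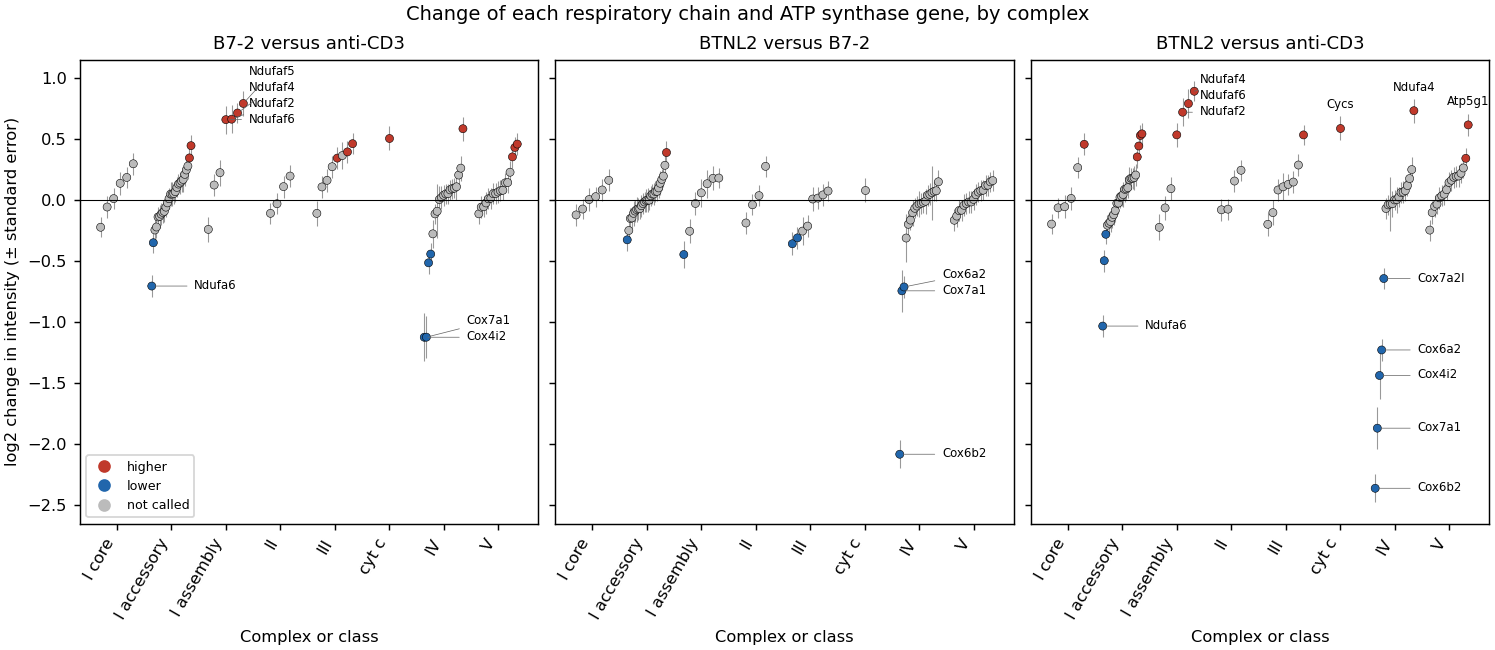
The log2 change of 88 members (circles, ± standard error of the limma fit, 2 arrays per group) in each comparison, by complex or class, with Ndufs5-ps left out; red and blue mark genes called higher and lower, grey those not called, and names are given for calls of at least 1.5-fold. Complex I assembly factors reached 0.89 (Ndufaf4) and complex IV reached -2.36 (Cox6b2), both in the BTNL2 wells against the anti-CD3 wells.

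The stretch of DNA just before the start of a gene holds sites for the factors that drive it, and NRF1, GABP (an ETS factor) and YY1 are known for binding before many respiratory genes. RefSeq promoter windows, which cover 250 bases before the start and 50 after it in build GRCm38.p6, were found for 71 of the 89 members, in 76 windows. The upstream part is shown for 4 members on which the results turn: Ndufaf4, the assembly factor with the largest rise in the BTNL2 wells, Ndufa6, the complex I subunit with the largest fall, and Cox6b2 and Cox7a1, the isoforms of complex IV with the largest falls. Each is written 5′ to 3′ on the strand of its gene, and capitals mark letters that match a searched motif.
Ndufaf4 (chr4:24897833-24898082, plus strand): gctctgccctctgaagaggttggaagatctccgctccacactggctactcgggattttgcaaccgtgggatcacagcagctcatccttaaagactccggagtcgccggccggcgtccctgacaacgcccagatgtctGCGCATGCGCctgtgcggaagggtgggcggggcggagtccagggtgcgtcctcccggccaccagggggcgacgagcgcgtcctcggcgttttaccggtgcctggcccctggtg
Ndufa6 (chr15:82354292-82354541, minus strand): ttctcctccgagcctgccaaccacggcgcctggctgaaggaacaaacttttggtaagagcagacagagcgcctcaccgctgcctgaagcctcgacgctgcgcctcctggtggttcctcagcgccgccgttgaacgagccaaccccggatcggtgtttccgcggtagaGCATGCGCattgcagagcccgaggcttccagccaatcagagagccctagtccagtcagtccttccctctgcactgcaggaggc
Cox6b2 (chr7:4753095-4753344, minus strand): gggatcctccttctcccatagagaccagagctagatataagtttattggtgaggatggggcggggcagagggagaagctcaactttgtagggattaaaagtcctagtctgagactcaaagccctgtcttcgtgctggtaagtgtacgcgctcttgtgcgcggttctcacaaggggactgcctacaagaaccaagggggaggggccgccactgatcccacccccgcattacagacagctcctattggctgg
Cox7a1 (chr7:30183921-30184170, plus strand): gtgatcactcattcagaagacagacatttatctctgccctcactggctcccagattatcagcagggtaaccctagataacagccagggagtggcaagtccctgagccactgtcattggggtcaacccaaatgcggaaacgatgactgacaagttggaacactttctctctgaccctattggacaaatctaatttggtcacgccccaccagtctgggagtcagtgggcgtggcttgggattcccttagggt

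Ndufaf4 held the NRF1 core GCGCATGC on both strands, starting 113 and 111 bases before the start of the gene, in letters that overlap. Its window held the core again across or after the start, which the printed stretch does not show. Ndufa6 held the core on the opposite strand, 83 bases before the start. Neither Cox6b2 nor Cox7a1 held any of the 4 motifs. Ndufa4 and Ndufaf2, whose windows are not printed, had the next largest rises after Ndufaf4 among called members with 1 window. They held none of the 4 motifs either. Such a result says only that these letters are not in the window. Both strands of the whole 300-base windows were searched. The NRF1 core was in 13 of the 76 member windows (17.1%), beside 2.71% of all 32851 windows. The ETS and GABP core CCGGAAG was in 17 (22.4%, beside 8.86%), the YY1 core AAGATGGCG in 8 (10.5%, beside 1.4%) and the E-box CACGTG in 7 (9.21%, beside 7.15%). Among the members called higher in any comparison, 5 of 13 windows held the NRF1 core, and among those called lower, 1 of 8. Among the members never called, 7 of 55 held it. In the same order, the ETS and GABP core was in 2 of 13, 1 of 8 and 14 of 55 windows. The YY1 core was in 0, 0 and 8 of these windows, and the E-box in 2, 0 and 5. These counts are a description and were not tested, and a match is not a bound site.

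Complex I is the largest complex of the chain and is built stepwise with the help of factors that leave the finished enzyme. Of the 7 assembly factors measured, 4 rose with B7-2 against anti-CD3 (Ndufaf2, Ndufaf4, Ndufaf5 and Ndufaf6), and the same 4 rose in the BTNL2 wells against anti-CD3. They are 57.1% of the class, beside 11.2% and 14.2% of all genes called higher. Ndufaf4 helps to build the part of complex I where coenzyme Q is reduced. Its intensity was 385 and 391 in the anti-CD3 wells, 629.6 and 639.9 in the B7-2 wells and 725 and 712 in the BTNL2 wells. The 3 groups did not overlap, and the duplicates lay close together. It rose by 0.71 ± 0.08 on the log2 scale with B7-2 (adjusted p = 0.0014) and by 0.89 ± 0.08 in the BTNL2 wells against anti-CD3 (adjusted p = 0.000306), while the step from B7-2 to BTNL2 was 0.18 ± 0.08 and did not pass the test (adjusted p = 0.191).

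Ndufaf5 hydroxylates the core subunit Ndufs7 during assembly. It read 168 and 192 in the anti-CD3, 316 and 305 in the B7-2 and 267 and 253 in the BTNL2 wells. Both B7-2 arrays were thus the highest, and both BTNL2 arrays lay between the other groups. The log2 change was 0.79 ± 0.10 with B7-2 (adjusted p = 0.00188) and 0.53 ± 0.10 in the BTNL2 wells against anti-CD3 (adjusted p = 0.00632), and the difference between BTNL2 and B7-2 was -0.26 ± 0.10 (adjusted p = 0.124).

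Ndufaf2, a late factor that is related to the subunit Ndufa12, read 290.2 and 353 with anti-CD3, 493 and 518 with B7-2 and 529 and 523 with BTNL2. Here all 4 arrays with B7-2 on the plate lay above both anti-CD3 arrays. The rise was 0.66 ± 0.11 with B7-2 (adjusted p = 0.00603) and 0.72 ± 0.11 in the BTNL2 wells (adjusted p = 0.00293). Ndufaf6, which acts early in assembly, read 108 and 126 with anti-CD3, 174 and 195 with B7-2, and 210.4 and 193 with BTNL2. Its B7-2 and BTNL2 arrays overlapped and both exceeded the anti-CD3 arrays, by 0.66 ± 0.12 (adjusted p = 0.00674) and 0.79 ± 0.12 (adjusted p = 0.00215).

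Of the other three assembly factors, Ndufaf1, which belongs to the assembly complex of the membrane arm, read 318 and 338 with anti-CD3, 412 and 356 with B7-2, and 269.5 and 292 with BTNL2, so that both BTNL2 arrays were the lowest. It fell by 0.45 ± 0.11 from B7-2 to BTNL2 (adjusted p = 0.0256). That call was lost without B7-2 replicate 1 (-0.34, adjusted p = 0.137), without BTNL2 replicate 1 (-0.39, adjusted p = 0.125) and without BTNL2 replicate 2 (-0.51, adjusted p = 0.0525). Ndufaf3, the partner of Ndufaf4, was not called, with log2 differences of -0.24 ± 0.10, 0.18 ± 0.10 and -0.07 ± 0.10 in the 3 comparisons. Ndufaf8, the partner of Ndufaf5, was not called either (0.12 ± 0.09, -0.03 ± 0.09 and 0.09 ± 0.09). The median change of the 7 factors was 0.66 with B7-2 against anti-CD3, 0.06 with BTNL2 against B7-2 and 0.53 with BTNL2 against anti-CD3, beside medians of all genes of -0.0048, -0.0114 and -0.0046.

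The 6 core subunits of complex I, which carry the flavin and the iron-sulfur clusters, gave 1 call. It was a rise with BTNL2 against anti-CD3 (16.7% of the class, beside 14.2% of all genes). Ndufs1, the subunit with several iron-sulfur clusters in the NADH-oxidising arm, read 390.0 and 397 with anti-CD3, 491 and 474 with B7-2 and 514 and 565 with BTNL2. The groups were in this order with no overlap. It rose by 0.45 ± 0.09 in the BTNL2 wells against anti-CD3 (adjusted p = 0.00836, and 0.0502 without anti-CD3 replicate 1), and the difference with B7-2 was 0.29 ± 0.09 (adjusted p = 0.0555). Ndufs3, Ndufs7, Ndufs8, Ndufv1 and Ndufv2 were not called in any comparison. Ndufv2, a partner of Ndufv1 at the NADH site, lay lower with B7-2 by 0.22 ± 0.08 (adjusted p = 0.0954), and Ndufs8 lay higher in the BTNL2 wells against anti-CD3 by 0.26 ± 0.09 (adjusted p = 0.0615).

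Accessory subunits surround the core of complex I, and 19 of the 26 measured were called in none of the comparisons. With B7-2, 2 rose and 2 fell; with BTNL2 against B7-2, 1 rose and 1 fell; and with BTNL2 against anti-CD3, 4 rose and 3 fell. Ndufa6, a small subunit that binds the mitochondrial acyl carrier protein, had the widest change among them. Its intensity was 923 and 869.7 with anti-CD3, 530.3 and 569 with B7-2 and 436 and 439.8 with BTNL2, a stepwise order with no overlap of groups. The log2 change was -0.71 ± 0.09 with B7-2 (adjusted p = 0.00188) and -1.03 ± 0.09 in the BTNL2 wells against anti-CD3 (adjusted p = 0.000224), a fold of 2.05. The further step from B7-2 to BTNL2 was -0.33 ± 0.09 (adjusted p = 0.0418) and was lost in 9 of 14 alternatives, each of the 6 arrays left out among them (adjusted p 0.0522 to 0.18). Ndufab1, the acyl carrier protein itself, moved the other way: it read 2177 and 2346 with anti-CD3, 3021 and 3124 with B7-2, and 2912 and 2852 with BTNL2. Both groups with B7-2 exceeded both anti-CD3 arrays, by 0.44 ± 0.09 in the B7-2 wells (adjusted p = 0.011) and 0.35 ± 0.09 in the BTNL2 wells (adjusted p = 0.0217). The first call was lost without anti-CD3 replicate 1 (0.39, adjusted p = 0.0744) and without B7-2 replicate 2 (0.42, adjusted p = 0.0626), and the second without any 1 of the 4 arrays compared (adjusted p up to 0.122).

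Ndufb2, a small subunit of the membrane arm, was the 1 member that rose from B7-2 to BTNL2. It read 545 and 501 with anti-CD3, 598 and 564 with B7-2 and 757 and 762 with BTNL2. The BTNL2 arrays were the highest, and the B7-2 arrays lay just above the anti-CD3 arrays. It rose by 0.39 ± 0.09 against B7-2 (adjusted p = 0.0244), a call that was lost without any 1 of the 4 arrays compared (0.34 to 0.43, adjusted p 0.0696 to 0.116), and by 0.54 ± 0.09 against anti-CD3 (adjusted p = 0.00391). Ndufa5, a subunit of the arm that reaches into the matrix, read 2012 and 1957 with anti-CD3, 2324 and 2376 with B7-2, and 2806 and 2910.5 with BTNL2, the groups again in order. It rose by 0.53 ± 0.08 between the anti-CD3 and BTNL2 wells (adjusted p = 0.00314), and neither single step passed the test (0.24 ± 0.08, adjusted p = 0.0796, and 0.28 ± 0.08, adjusted p = 0.0567).

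Ndufb11, a membrane arm subunit encoded on the X chromosome, read 5693 and 5732 with anti-CD3, 4502 and 4453 with B7-2 and 4692 and 4702 with BTNL2. Both groups with B7-2 were below anti-CD3. Its change was -0.35 ± 0.08 with B7-2 (adjusted p = 0.0207) and -0.28 ± 0.08 with BTNL2 against anti-CD3 (adjusted p = 0.0382). The first was lost with median centring (-0.21, adjusted p = 0.108) and without any 1 of the 4 arrays compared (adjusted p up to 0.0928). The second was lost in 9 of 14 alternatives, with median centring (-0.12, adjusted p = 0.307), the 2 groups fitted alone (adjusted p = 0.0642) and each of the 6 arrays left out (0.0642 to 0.142) among them. Ndufa12 and Ndufv3 were also called and are named here after their values were seen. Ndufa12 rose by 0.34 ± 0.08 with B7-2 (adjusted p = 0.0255, lost with the mean of its probe sets and without any 1 of the arrays compared, up to 0.134) and by 0.44 ± 0.08 in the BTNL2 wells against anti-CD3 (adjusted p = 0.00704, and 0.0503 without anti-CD3 replicate 1). Ndufv3, which sits at the NADH site, fell by 0.50 ± 0.09 in the BTNL2 wells against anti-CD3 (adjusted p = 0.00535).

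**Figure D2:**
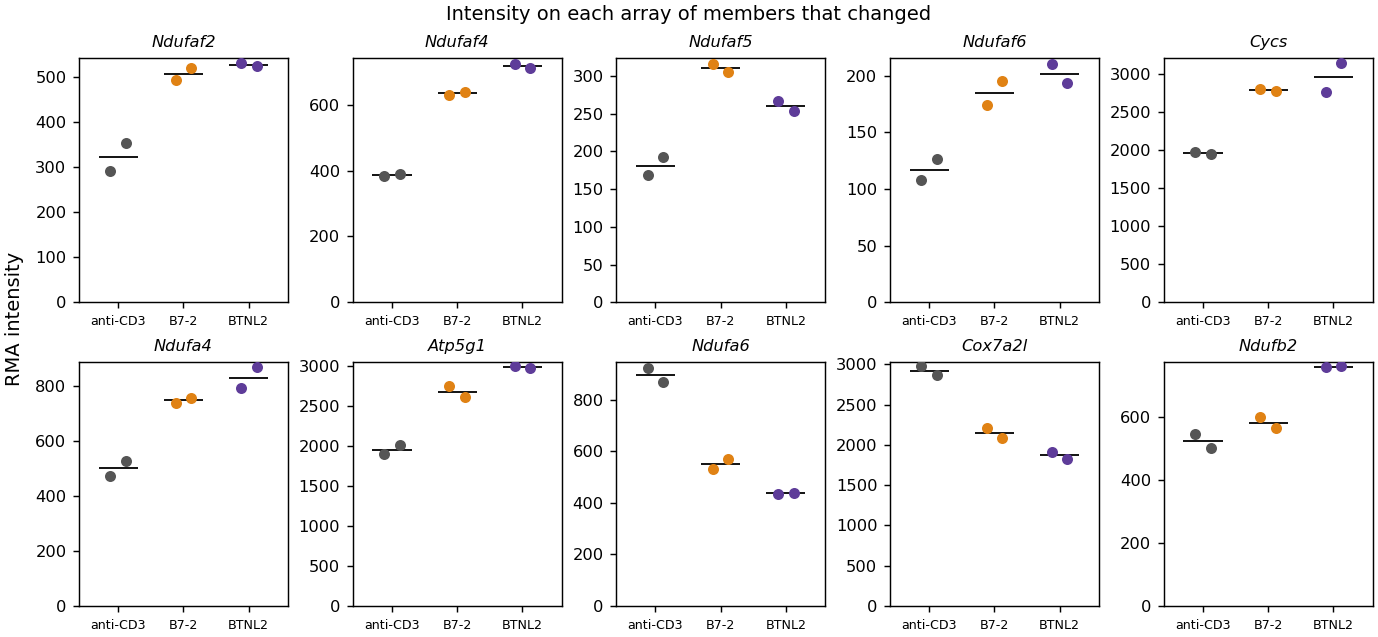
RMA intensity (linear axis from 0, a scale of its own in each panel) of 10 members on the 2 arrays of each group; points are arrays and lines are group means. The 4 assembly factors, Cycs, Ndufa4 and Atp5g1 were higher on all 4 arrays with B7-2 than on both anti-CD3 arrays, Ndufa6 and Cox7a2l were lower, and Ndufb2 was highest in the BTNL2 wells.

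Complex II, succinate dehydrogenase, is also an enzyme of the TCA cycle. None of its 4 genes passed limma's test in any comparison, and at an unadjusted p under 0.05 there was 1 gene in each comparison with BTNL2 (Sdhb). Sdha, the flavoprotein that oxidises succinate, read 2480.1 and 2516 with anti-CD3, 2322 and 2305 with B7-2 and 2444 and 2296 with BTNL2. Sdhb, the iron-sulfur subunit, read 1571 and 1608 with anti-CD3, 1577 and 1532 with B7-2, and 1852 and 1907 with BTNL2, so both BTNL2 arrays were above the other 4. This difference was 0.27 ± 0.08 against B7-2 (adjusted p = 0.0622) and 0.24 ± 0.08 against anti-CD3 (adjusted p = 0.0714). The membrane anchors Sdhc and Sdhd differed by 0.11 ± 0.09 and 0.19 ± 0.09 with B7-2 against anti-CD3, and by -0.19 ± 0.09 and -0.04 ± 0.09 with BTNL2 against B7-2.

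In complex III, 3 of 8 genes rose with B7-2 against anti-CD3, 2 fell with BTNL2 against B7-2, and 1 rose in the BTNL2 wells against anti-CD3. These shares of 37.5%, 25% and 12.5% stood beside 11.2%, 10.8% and 14.2% of all genes. Cyc1 encodes cytochrome c1, which passes electrons to cytochrome c. It read 1445 and 1429 with anti-CD3, 1942 and 2009 with B7-2 and 2029 and 2124 with BTNL2. Every array with B7-2 lay above both anti-CD3 arrays. The rise was 0.46 ± 0.09 with B7-2 (adjusted p = 0.00821, and 0.0505 without B7-2 replicate 2) and 0.53 ± 0.09 in the BTNL2 wells (adjusted p = 0.00314). Cycs, cytochrome c itself, the mobile carrier between complexes III and IV and a trigger of apoptosis once released, read 1977 and 1950.4 with anti-CD3, 2804 and 2780.4 with B7-2, and 2763 and 3153 with BTNL2. Its B7-2 and BTNL2 arrays overlapped, and all 4 were above the anti-CD3 arrays. It rose by 0.51 ± 0.10 with B7-2 (adjusted p = 0.00922, and 0.0532 without anti-CD3 replicate 2) and by 0.59 ± 0.10 in the BTNL2 wells against anti-CD3 (adjusted p = 0.00353).

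Uqcrq, a small subunit near cytochrome b, had a different pattern: it read 1641 and 1585 with anti-CD3, 2089 and 2143 with B7-2 and 1642 and 1769.9 with BTNL2. The B7-2 arrays were the 2 highest, and the BTNL2 arrays were just above those of anti-CD3. It rose by 0.39 ± 0.09 with B7-2 (adjusted p = 0.018) and fell by 0.31 ± 0.09 from B7-2 to BTNL2 (adjusted p = 0.0481). Neither call held throughout: the first was lost with the mean of its probe sets (0.29, adjusted p = 0.0662) and without any 1 of the 4 arrays compared (adjusted p up to 0.0938), and the second was lost in 11 of 14 alternatives (adjusted p up to 0.19). Uqcr11 was also highest in the B7-2 wells, at 1318 and 1270.2 beside 997 and 1046 with anti-CD3 and 1078 and 1152 with BTNL2, a rise of 0.34 ± 0.09 with B7-2 (adjusted p = 0.0309) that was lost without any 1 of the arrays compared (adjusted p up to 0.15). Uqcrfs1, the Rieske iron-sulfur protein that takes electrons from coenzyme Q, read 1619.8 and 1574 with anti-CD3, 1772 and 1794 with B7-2, and 1315 and 1468 with BTNL2. The BTNL2 arrays were the lowest. It fell by 0.36 ± 0.09 from B7-2 to BTNL2 (adjusted p = 0.0348), a call that was lost in 7 of 14 alternatives (adjusted p up to 0.156). The core proteins Uqcrc1 and Uqcrc2, and Uqcr10 and Uqcrb, were not called in any comparison.

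The widest changes were in complex IV, and they concerned forms known from other tissues. Of 8 isoforms known from particular tissues or conditions, 3 fell with B7-2 against anti-CD3 (37.5%, beside 13.3% of all genes). With BTNL2, 3 fell against B7-2 (37.5%, beside 10.8%) and 4 against anti-CD3 (50%, beside 16.2%). None rose in any comparison. Cox6b2, the testis form of a subunit that faces the intermembrane space, read 517 and 454 with anti-CD3, 405 and 393 with B7-2 and 102 and 86.8 with BTNL2. Both BTNL2 arrays were far below the other 4, and the B7-2 arrays were somewhat below anti-CD3. Its log2 change was -2.08 ± 0.12 with BTNL2 against B7-2 (adjusted p = 5.44e-05), a fall of 4.24-fold, and -2.36 ± 0.12 against anti-CD3 (adjusted p = 2.62e-05). The difference with B7-2 alone was -0.28 ± 0.12 and did not pass (adjusted p = 0.136).

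Cox7a1, the heart and skeletal muscle form of Cox7a, read 181 and 199.6 with anti-CD3, 96.6 and 78.6 with B7-2 and 44.3 and 61.1 with BTNL2. The groups stood in that order without overlap. Its change was -1.12 ± 0.17 with B7-2 (adjusted p = 0.00396) and -1.87 ± 0.17 in the BTNL2 wells against anti-CD3 (adjusted p = 0.000297). From B7-2 to BTNL2 it was -0.74 ± 0.17 (adjusted p = 0.0232), and this call was lost without B7-2 replicate 1 (-0.60, adjusted p = 0.118) and without BTNL2 replicate 1 (-0.51, adjusted p = 0.0986). Cox6a2, the heart and skeletal muscle form of Cox6a, read 69.5 and 67.5 with anti-CD3, 49.99 and 46.0 with B7-2, and 29.3 and 29.1 with BTNL2, again in order and with close duplicates. It fell in all 3 comparisons, by 0.52 ± 0.09 with B7-2 (adjusted p = 0.00615), 0.71 ± 0.09 from B7-2 to BTNL2 (adjusted p = 0.00164) and 1.23 ± 0.09 overall (adjusted p = 0.00011).

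Cox4i2, a form of Cox4 that is known from lung and from low oxygen, read 66.2 and 44.0 with anti-CD3, 24.2 and 25.2 with B7-2 and 17.9 and 22.2 with BTNL2. The duplicates with anti-CD3 were wide apart, but all 4 arrays with B7-2 lay below them. It changed by -1.12 ± 0.20 with B7-2 (adjusted p = 0.0065) and -1.44 ± 0.20 in the BTNL2 wells against anti-CD3 (adjusted p = 0.00156), and BTNL2 and B7-2 differed by -0.31 ± 0.20 (adjusted p = 0.333). These signals were above the nonspecific controls but dim. The remaining isoforms, Cox7b2, Cox8b, Cox8c and Ndufa4l2, were dim as well, and none was called: Cox8b read 34.4 and 21.2 with anti-CD3, 22.8 and 28.0 with B7-2, and 25.3 and 27.4 with BTNL2, with overlap of all groups.

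The common forms Cox4i1, Cox6a1, Cox6b1, Cox7a2 and Cox8a were not called in any comparison. Cox4i1 differed by 0.09 ± 0.08, -0.07 ± 0.08 and 0.02 ± 0.08 in the 3 comparisons, and Cox6a1 by 0.04 ± 0.09, 0.04 ± 0.09 and 0.07 ± 0.09. Cox6b1 read 5415 and 5503 with anti-CD3, 5695 and 5608 with B7-2 and 5539 and 5372 with BTNL2, and Cox7a2 read 6405 and 6539 with anti-CD3, 6718 and 6664 with B7-2, and 7051 and 6983 with BTNL2. The differences of these 4 genes and Cox8a ran from -0.17 (Cox8a, BTNL2 against B7-2) to 0.12 (Cox7a2, BTNL2 against anti-CD3). Intensities of different probe sets are not on 1 scale, so the share of a subunit that an isoform makes up is not given. The isoforms are forms of muscle, lung or testis. T cell, B cell, CD8 or NK markers were also called between these groups, as were Cd68 and Cybb of the 10 myeloid markers, as given above. The part of these cell types in the falls was not tested.

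**Figure D3:**
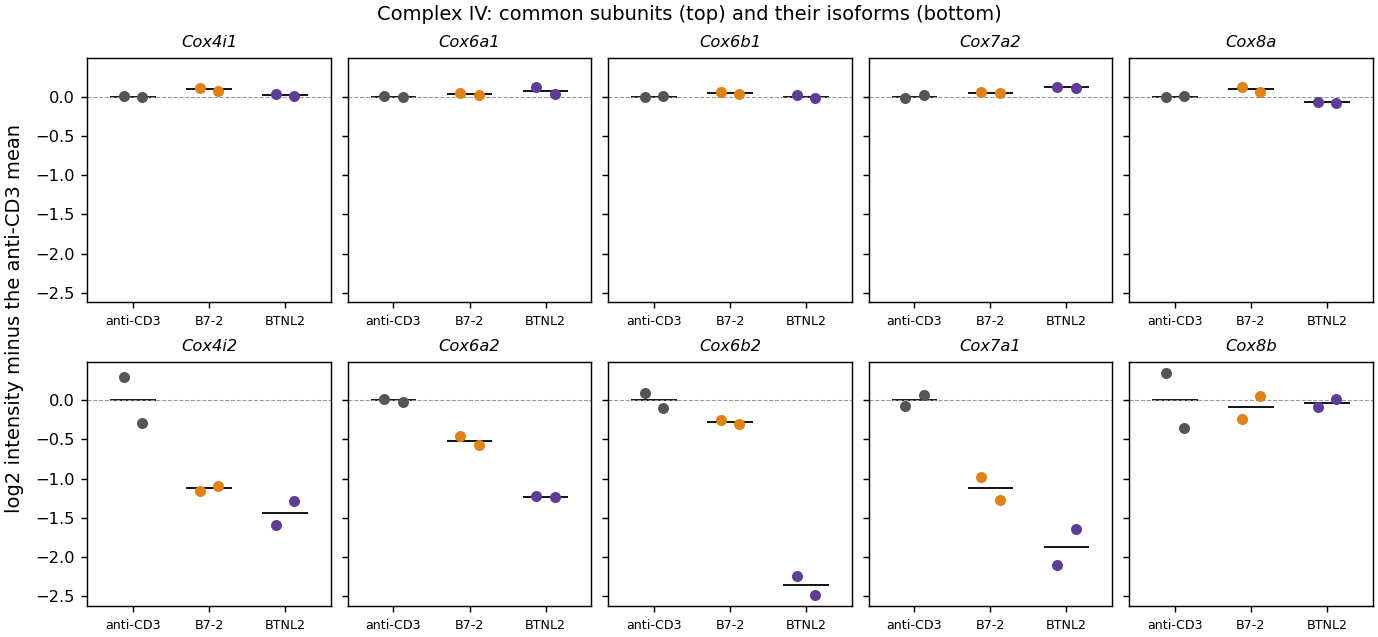
Each array's log2 intensity minus the mean of the 2 anti-CD3 arrays, for 5 common complex IV subunits (top) and an isoform of each (bottom); points are arrays, lines are group means and all panels share 1 axis. The arrays of the common subunits lay close to the anti-CD3 mean, while Cox6b2 fell by 2.36 and Cox7a1 by 1.87 in the BTNL2 wells.

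Ndufa4, once counted with complex I and now known as a complex IV subunit, was the 1 common subunit that was called. It read 473 and 528 with anti-CD3, 739.6 and 757 with B7-2 and 791 and 869 with BTNL2, in order and without overlap. It rose by 0.58 ± 0.10 with B7-2 (adjusted p = 0.00602) and by 0.73 ± 0.10 in the BTNL2 wells against anti-CD3 (adjusted p = 0.00157). The step from B7-2 to BTNL2 was 0.15 ± 0.10 (adjusted p = 0.371). Cox7a2l, a relative of Cox7a that joins complexes III and IV into supercomplexes and is shortened in C57BL/6 mice, went the other way. It read 2975 and 2867 with anti-CD3, 2211 and 2084 with B7-2, and 1912 and 1825 with BTNL2, a downward order without overlap. Its change was -0.44 ± 0.09 with B7-2 (adjusted p = 0.0109) and -0.64 ± 0.09 in the BTNL2 wells against anti-CD3 (adjusted p = 0.00158). The first of these was lost without anti-CD3 replicate 1 (-0.42, adjusted p = 0.069) and without B7-2 replicate 2 (-0.40, adjusted p = 0.0661). All 3 probe sets of Cox7a2l were called lower in both comparisons with anti-CD3 when each was tested on its own.

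ATP synthase has a catalytic head (F1), a ring of c subunits that turns with the proton flow, and stalks that join them. Of its 17 genes, 3 rose with B7-2 against anti-CD3 (17.6%, beside 11.2% of all genes). In the BTNL2 wells 2 rose against anti-CD3 (11.8%, beside 14.2%). None was called with BTNL2 against B7-2 (0 by limma at an unadjusted p under 0.05). The c subunit is made from 3 genes that encode the same mature protein. Atp5g1 read 1893 and 2003 with anti-CD3, 2743 and 2601 with B7-2 and 2993 and 2963 with BTNL2, in order and without overlap. It rose by 0.46 ± 0.09 with B7-2 (adjusted p = 0.00938) and by 0.61 ± 0.09 in the BTNL2 wells against anti-CD3 (adjusted p = 0.00188). The first call was lost without anti-CD3 replicate 1 (0.42, adjusted p = 0.0646) and without B7-2 replicate 1 (0.42, adjusted p = 0.0581), and the second with the mean of its probe sets (0.29, adjusted p = 0.0515). Atp5g2 and Atp5g3, the other c subunit genes, were not called: their differences with B7-2 were 0.05 ± 0.08 and 0.07 ± 0.08, and those in the BTNL2 wells against anti-CD3 were -0.04 ± 0.08 and 0.19 ± 0.08. Whether Atp5g1 and the other 2 differed in their response was not tested.

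Of the F1 head, Atp5a1, the alpha subunit, was the 1 gene called. It read 3199 and 3449 with anti-CD3, 4249 and 4228 with B7-2 and 3707 and 3843 with BTNL2, so the B7-2 arrays were the highest. It rose by 0.35 ± 0.09 with B7-2 (adjusted p = 0.0269), a call that was lost without any 1 of the 4 arrays compared (0.30 to 0.41, adjusted p up to 0.146). Atp5b, the catalytic beta subunit, read 3411 and 3560.3 with anti-CD3, 4179 and 3973 with B7-2, and 3859 and 4124 with BTNL2, and its difference with B7-2 was 0.23 ± 0.09 (adjusted p = 0.12). Atp5c1, Atp5d and Atp5e differed by -0.06 ± 0.09, -0.11 ± 0.09 and 0.08 ± 0.08 in that comparison. Among the 9 stalk and membrane subunits, Atp5l, subunit g of the membrane part, was the 1 gene called, at 852 and 849.6 with anti-CD3, 1142 and 1147 with B7-2, and 1041 and 1113 with BTNL2. Every array with B7-2 was above both anti-CD3 arrays, by 0.43 ± 0.09 in the B7-2 wells (adjusted p = 0.0113, lost without any 1 of the arrays compared, up to 0.0612) and 0.34 ± 0.09 in the BTNL2 wells (adjusted p = 0.0223, lost without either anti-CD3 array or BTNL2 replicate 2, up to 0.097).

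Set side by side, 11 members rose in both comparisons with anti-CD3 and were not called between BTNL2 and B7-2. The share of all genes with this pattern, or with those that follow, was not counted. Of the members that fell, 3 (Cox6a2, Cox7a1 and Ndufa6) were called lower in every comparison, and Cox4i2, Cox7a2l and Ndufb11 in both comparisons with anti-CD3. Uqcrq alone was called higher with B7-2 and lower from B7-2 to BTNL2. Of the calls in the 3 comparisons, 9 of 20, 2 of 8 and 16 of 22 held under every alternative. Among 40 members with several probe sets above the 40th percentile, none had probe sets called in opposite directions, and 4, 4 and 7 of them in the 3 comparisons had probe sets that were not all given the same call.

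Genes that serve the chain from outside it were read from lists of known members. Their counts stand beside the shares of all genes called higher and lower, which were 11.2% and 13.3% with B7-2 against anti-CD3, 9.52% and 10.8% with BTNL2 against B7-2, and 14.2% and 16.2% with BTNL2 against anti-CD3. Of 37 assembly factors that the symbol rule does not take in, 10 rose and 5 fell in the first comparison (27.0% and 13.5%), 3 rose and 6 fell in the second (8.11% and 16.2%), and 11 rose and 5 fell in the third (29.7% and 13.5%). The shares that fell in the first and rose in the second were near those of all genes. Lrpprc, which keeps mitochondrial messenger RNA stable, read 312 and 299.7 with anti-CD3, 574 and 589 with B7-2 and 571 and 573 with BTNL2, a rise of 0.93 ± 0.08 with B7-2 (adjusted p = 0.000627). Ecsit, a partner of Ndufaf1 in complex I assembly, rose by 0.68 ± 0.08 with B7-2 (adjusted p = 0.00164) and fell by 0.39 ± 0.08 from B7-2 to BTNL2 (adjusted p = 0.0172), the latter lost without any 1 of the 4 arrays compared (adjusted p up to 0.0851). Sco1, a copper carrier for complex IV, read 816 and 780.3 with anti-CD3, 597 and 573 with B7-2, and 253 and 270.1 with BTNL2, and fell by 1.16 ± 0.09 from B7-2 to BTNL2 (adjusted p = 0.000188).

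Of 13 genes that maintain and transcribe mitochondrial DNA, 3 rose with B7-2 (23.1%), 1 rose and 1 fell with BTNL2 against B7-2 (7.69% each), and 6 rose in the BTNL2 wells against anti-CD3 (46.2%). Top1mt, the mitochondrial topoisomerase, read 90.5 and 73.7 with anti-CD3, 220.0 and 215 with B7-2, and 136 and 145 with BTNL2 and rose by 1.41 ± 0.12 with B7-2 (adjusted p = 0.000465). Of 8 regulators of respiratory genes, 4 rose with B7-2 (50% of this short list), 2 fell with BTNL2 against B7-2 (25%) and 2 rose in the BTNL2 wells against anti-CD3 (25%). The 2 that fell were Myc and Pprc1, and these calls were lost in 2 and 8 of 14 alternatives. Myc read 133 and 92.4 with anti-CD3, 178 and 236 with B7-2, and 95.3 and 109 with BTNL2. Its rise with B7-2 was called too and was lost in 2 of 14 alternatives. Gabpa, the DNA-binding subunit of GABP, rose by 0.49 ± 0.10 and 0.50 ± 0.10 in the B7-2 and BTNL2 wells against anti-CD3 (adjusted p = 0.0102 and 0.0072). It was lost in the first without anti-CD3 replicate 2 (0.41, adjusted p = 0.0649) and without B7-2 replicate 2 (0.46, adjusted p = 0.0594), and in the second without anti-CD3 replicate 2 (0.41, adjusted p = 0.0506). Ppargc1b, a coactivator of mitochondrial genes, read 34.5 and 38.1 with anti-CD3, 49.0 and 53.5 with B7-2, and 64.0 and 61.6 with BTNL2, a rise of 0.79 ± 0.10 in the BTNL2 wells against anti-CD3 (adjusted p = 0.001). Nrf1 itself was not called (0.24 ± 0.11, -0.17 ± 0.11 and 0.07 ± 0.11 in the 3 comparisons), nor were Gabpb1, Esrra and Yy1. Pprc1, another coactivator, rose by 0.46 ± 0.09 with B7-2 (adjusted p = 0.00872), lost without anti-CD3 replicate 1 (0.46, adjusted p = 0.0522) and without B7-2 replicate 1 (0.41, adjusted p = 0.0562).

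Of 16 genes of the TCA cycle and pyruvate dehydrogenase, which supply NADH and succinate, 7 rose with B7-2 against anti-CD3 (43.8%), 2 fell with BTNL2 against B7-2 (12.5%, beside 10.8% of all genes), and 6 rose and 1 fell with BTNL2 against anti-CD3 (37.5% and 6.25%). Idh3a, a subunit of the NADH-producing isocitrate dehydrogenase, rose by 1.14 ± 0.09 with B7-2 (adjusted p = 0.000443), from 328 and 309.6 to 684 and 719. Suclg1, a subunit of the enzyme that makes succinate, fell by 0.82 ± 0.10 from B7-2 to BTNL2 (adjusted p = 0.00138), from 2214 and 2132 to 1148 and 1313. Of 10 genes of coenzyme Q synthesis, 5 rose and 1 fell with B7-2, 1 rose and 2 fell with BTNL2 against B7-2, and 5 rose and 4 fell with BTNL2 against anti-CD3. Coq8a, a kinase-like protein of that pathway, read 206 and 190.3 with anti-CD3, 275 and 283 with B7-2, and 55.9 and 69.8 with BTNL2. Its brightest probe set changed by -2.16 ± 0.12 from B7-2 to BTNL2 (adjusted p = 5.92e-05). The rise of Coq8a with B7-2 was lost in 5 of 14 alternatives. With the mean of its probe sets, that change was -0.24. Of 6 other enzymes that pass electrons to coenzyme Q, 3 rose and 1 fell with B7-2, 3 fell with BTNL2 against B7-2, and 2 rose and 3 fell with BTNL2 against anti-CD3. Sqor, which oxidises sulfide, read 292 and 271 with anti-CD3, 81.4 and 84.2 with B7-2, and 28.9 and 34.7 with BTNL2 and fell at each step, by 1.76 ± 0.11 and 1.39 ± 0.11 (adjusted p = 0.000242 and 0.000253). Gpd2, the glycerol phosphate dehydrogenase, read 993 and 1093 with anti-CD3, 1585 and 1348 with B7-2, and 633 and 704 with BTNL2 and fell by 1.13 ± 0.12 with BTNL2 against B7-2 (adjusted p = 0.0007). Of 19 genes of membrane pores and protein import, 11 rose with B7-2 (57.9%), 10 rose in the BTNL2 wells against anti-CD3 (52.6%) and none was called between BTNL2 and B7-2 (2 by limma at an unadjusted p under 0.05). Tomm5 and Timm17a, parts of the import machines of the outer and inner membrane, rose by 0.79 ± 0.10 and 0.69 ± 0.08 with B7-2 (adjusted p = 0.00182 and 0.00168).

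**Figure D4:**
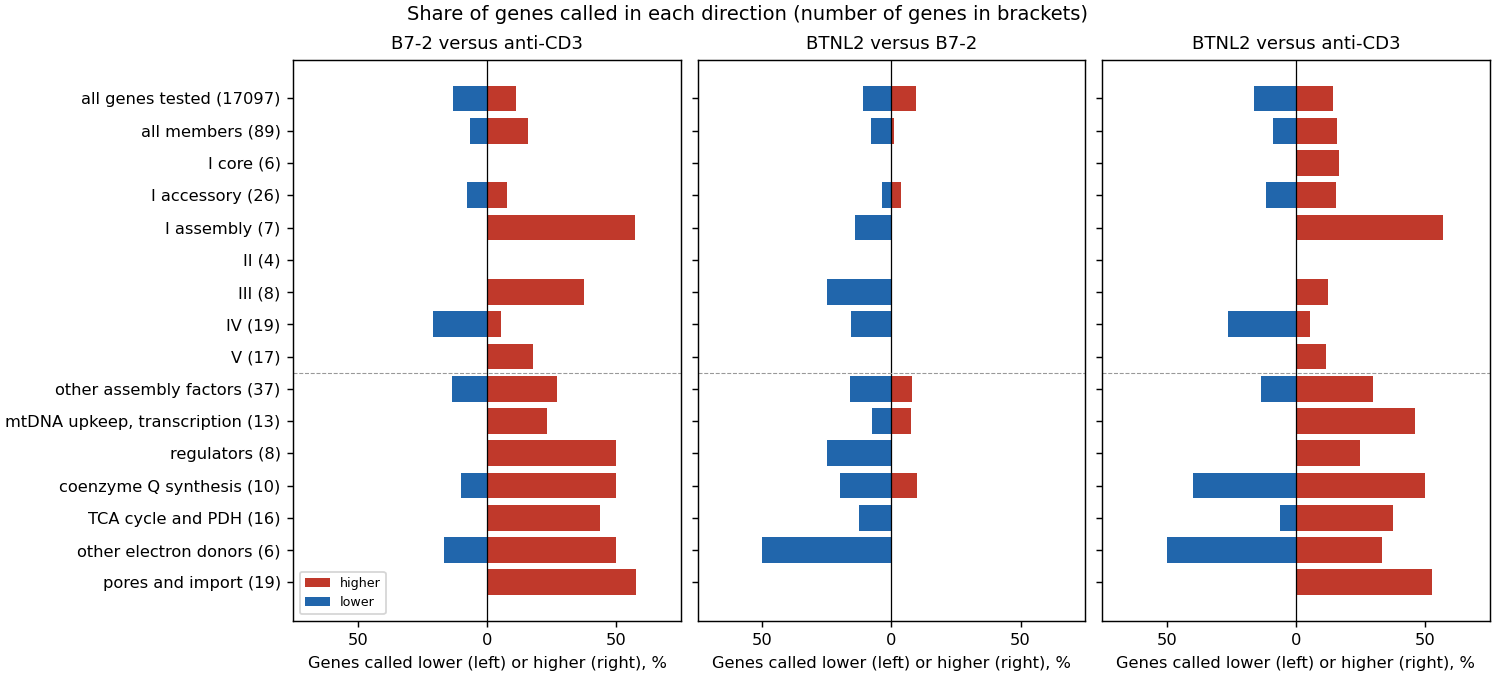
The share of genes called higher (red, to the right) and lower (blue, to the left) in each comparison, for all genes tested, all members, the classes of members above the dashed line and the related lists below it, with the number of genes in brackets. For all members the shares were 15.7% and 6.74% with B7-2 against anti-CD3 and 1.12% and 7.87% with BTNL2 against B7-2.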

How the data were processed

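The samples were 6 one-colour arrays of CD4+CD25- mouse T cells, 2 for each plate coating. Amplification started from 50 ng of RNA (NuGen Ovation, biotin label), per the labels' protocols. The deposited unit is the linear intensity of a probe set. The submitters' processing notes name RMA, while its version and the chip definition were not given in the sources used here. RMA makes the distributions of arrays alike, so a change shared by most transcripts would not be seen.

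All values were log2 transformed. The table held 45141 probe sets; 28898 had 1 gene symbol in the platform annotation, 551 several and 15588 none, and 104 were controls. One probe set per gene, the brightest over the 6 arrays, left 17097 genes with no filter. They were fitted with limma 3.58.1 in R 4.3.3 (lmFit, eBayes), all 6 arrays in 1 fit, 3 residual and 4.02 prior degrees of freedom, no block for the replicate number, and Benjamini-Hochberg adjustment per comparison. The procedure was tested on simulated data. Alternatives changed the variance prior, the groups fitted together, whether dim genes entered (40th percentile), the scaling, the probe set rule, the replicate block and each array in turn; testing each probe set on its own was added after seeing the data.

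Members, lists and named genes were chosen with earlier results of these data known. Named were members called with at least 1.5-fold change, the 3 of smallest p in each class and comparison, the Sdh, F1, c-ring and isoform genes, Cycs, Cyc1 and Uqcrfs1, and from each other list genes of smallest p; some of these are left out of the text. Promoter windows are those of RefSeq for GRCm38.p6, whose gene table was otherwise used only for names.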

Additional observations from a re-analysis of the deposited data

How the results depend on the processing

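Counts of called members moved most with the variance prior and the scaling. With an intensity trend in limma's prior, the members called higher were 27, 8 and 31 in the 3 comparisons (B7-2 against anti-CD3, BTNL2 against B7-2, BTNL2 against anti-CD3) in place of 14, 1 and 14, beside 13.9%, 12.2% and 16.6% of all genes. Those called lower were 15 of the 89 in each comparison with BTNL2, in place of 7 and 8, beside 13.6% and 18.1% of all genes. Median centring gave 30, 2 and 36 members called higher. For BTNL2 against B7-2 the 1 member called higher became 3 without dim genes, 2 with quantile normalization repeated and 3 with the mean of probe sets, and the 7 called lower became 4 with the 2 compared groups fitted alone. The cause of these shifts was not tested. No count or named gene of the 89 reversed under any alternative that was run.

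Leaving out each array in turn gave 7 to 14, 0 to 1 and 10 to 14 members called higher, and 4 to 6, 2 to 4 and 7 in each case called lower. A group left with 1 array was assumed to vary like the others. Same-numbered arrays of different groups did not deviate together (r = -0.064, -0.001 and -0.027 over genes). With 2 arrays per group, these values cannot show whether same-numbered cultures shared an animal or a preparation. With the replicate block 4 members in place of 7 were called lower for BTNL2 against B7-2, the calls lost there being Ndufa6, Uqcrfs1 and Uqcrq (adjusted p = 0.0734, 0.0572 and 0.0806). Uqcr11 with B7-2 (adjusted p = 0.0537) and Ndufb11 with BTNL2, both against anti-CD3 (adjusted p = 0.071), were also lost, and no other count of members moved by over 1.5 times. With 2 arrays per group, small log2 changes lie near the limit of what the test called, and dim probe sets such as Cox8b lie near background.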
